A study of Mus musculus with 8 samples.

Results

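Mitochondrial ribosomal proteins are encoded by nuclear genes, made in the cytosol and imported into mitochondria, where they assemble with ribosomal RNA transcribed from mitochondrial DNA. The resulting mitoribosome translates the respiratory chain and ATP synthase subunits that mitochondrial DNA encodes. Its large subunit (Mrpl genes) joins amino acids and holds the exit tunnel of the new chain, and its small subunit (Mrps genes) reads the messenger RNA. Some of these proteins have bacterial homologs and others are found only in mitochondria. Members were all genes with a single-gene probe set and a symbol of Mrpl or Mrps followed by a number, and each was read from its probe set with the highest mean signal. This gave 76 genes of the 18193 with a single-gene probe set on the array, 47 Mrpl and 29 Mrps. Of them 75 passed the filter on low signals (upper 67% of probe sets by mean) and were tested, among 14237 genes tested in all. Mrps27 did not pass, with a percentile rank of 30.7 by mean signal, and Mrpl30 and Mrpl53 lay only on probe sets shared with other genes.

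Gr-MDSCs, granulocytic myeloid-derived suppressor cells, are neutrophil-like cells that restrain T cells. They were taken from prostate tumors of CPPSML mice aged 12 to 16 weeks, which carry PB-Cre+, the floxed alleles PtenL/L, p53L/L and Smad4L/L, and the reporters mTmGL/+ and LSL-LucL/+, by magnetic sorting for CD11b+ Ly6G+ Ly6C-low cells, and total RNA was measured on Affymetrix Mouse Genome arrays. The 8 arrays came from 2 Dactolisib samples (0.1 µM, a dual inhibitor of PI3K and mTOR), 2 Dasatinib samples (0.1 µM, an inhibitor of Src and related tyrosine kinases) and 4 DMSO samples (the solvent control), each treated ex vivo for 6 h. All mice had been castrated once the tumor reached 150 mm3 and fed an enzalutamide diet for 4 weeks, so the DMSO cells share this history. The probasin promoter drives Cre in prostate epithelium, so the floxed alleles are deleted in the tumor cells and not in the Gr-MDSCs themselves. Whether the replicates are separate animals or cultures is not given in the sources used here, so the p-values cover the spread among these samples alone, and that spread may be technical. The question was how each inhibitor changes the transcripts of these cells.

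Granulocyte transcripts were abundant on all 8 arrays, with 21 of 24 markers over the filter and a log2 signal of S100a8, a calprotectin subunit, between 13.53 and 13.85. Ly6g, the sorting antigen, was among the 3 markers below the filter. Of 20 monocyte and macrophage markers 17 were over the filter, with a summed signal of 9390 to 12323 over the 8 arrays. Among them Csf1r, the receptor of the macrophage growth factor, lay at a log2 signal of 11.43 to 12.47. By overall correlation the arrays formed 3 sets that crossed the treatments, named here from the data and not from any label: set A (Dactolisib 1 beside DMSO 2 and 4), set B (Dactolisib 2 and Dasatinib 2 beside DMSO 3) and set C (Dasatinib 1 beside DMSO 5). Leaving out the member genes gave the same 3 sets. The 19 epithelial markers over the filter had a summed signal of 51419 and 53092 in set C, 9616 to 11074 in set A and 1950 to 2478 in set B. Each comparison was therefore fitted with limma as the study's methods describe it (no block) and with the set as a block (within array sets). The block was chosen from the signals of these same arrays, and the p-values of the blocked fit do not account for that choice. In the blocked fit the Dactolisib difference rests on DMSO 2, 3 and 4 and the Dasatinib difference on DMSO 3 and 5.

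The start regions of 5 members are shown first, 4 of which fell under Dactolisib, to show the motifs counted in the RefSeq promoter windows (GRCm38.p6, 250 bases before to 50 after the start). Of the 75 tested members 66 had a window. Capitals mark the motifs searched on both strands: the ETS motif CCGGAAG (the type bound by GABP), the NRF1 motif GCGCATGCG, the YY1 motif AAGATGGCG and the GC box GGGCGG, of which the longer ones do not contain the shorter. Mrpl22 (chr11:58171414-58171713, plus strand) and Mrpl58 (chr11:115403502-115403801, plus strand) carry ETS motifs, Mrpl42 (chr10:95501900-95502199, minus strand) a YY1 motif, and Mrpl46 (chr7:78783040-78783339, minus strand) and Mrps11 (chr7:78782881-78783180, plus strand) are neighbors transcribed away from each other, with 42 bases between the genes and overlapping windows.
Mrpl22: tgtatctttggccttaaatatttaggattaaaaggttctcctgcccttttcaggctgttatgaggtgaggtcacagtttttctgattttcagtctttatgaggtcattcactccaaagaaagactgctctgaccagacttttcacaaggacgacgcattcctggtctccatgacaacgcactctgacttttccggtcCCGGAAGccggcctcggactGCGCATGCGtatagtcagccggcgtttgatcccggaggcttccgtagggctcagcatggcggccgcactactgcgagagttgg
Mrpl58: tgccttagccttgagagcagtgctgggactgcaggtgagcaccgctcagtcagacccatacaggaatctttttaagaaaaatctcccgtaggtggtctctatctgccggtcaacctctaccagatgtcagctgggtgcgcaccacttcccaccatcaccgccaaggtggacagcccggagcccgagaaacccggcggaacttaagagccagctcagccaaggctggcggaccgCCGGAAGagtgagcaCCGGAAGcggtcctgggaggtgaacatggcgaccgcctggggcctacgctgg
Mrpl42: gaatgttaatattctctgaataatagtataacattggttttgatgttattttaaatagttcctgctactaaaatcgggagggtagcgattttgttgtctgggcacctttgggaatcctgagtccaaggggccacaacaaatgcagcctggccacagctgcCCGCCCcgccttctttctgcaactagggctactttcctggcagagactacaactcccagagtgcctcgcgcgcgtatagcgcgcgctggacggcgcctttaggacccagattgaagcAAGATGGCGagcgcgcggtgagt
Mrpl46: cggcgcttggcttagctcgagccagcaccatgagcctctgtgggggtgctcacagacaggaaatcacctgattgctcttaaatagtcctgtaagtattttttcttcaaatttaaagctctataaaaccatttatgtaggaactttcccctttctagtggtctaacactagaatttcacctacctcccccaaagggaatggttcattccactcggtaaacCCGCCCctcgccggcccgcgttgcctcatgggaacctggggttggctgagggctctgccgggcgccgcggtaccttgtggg
Mrps11: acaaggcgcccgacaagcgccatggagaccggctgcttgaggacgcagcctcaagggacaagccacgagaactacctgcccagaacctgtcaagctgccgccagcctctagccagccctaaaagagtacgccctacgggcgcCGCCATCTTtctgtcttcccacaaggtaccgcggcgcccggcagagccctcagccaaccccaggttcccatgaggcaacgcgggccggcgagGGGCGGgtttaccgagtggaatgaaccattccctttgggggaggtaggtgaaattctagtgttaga

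The ETS motif was present in 23 of the 66 member windows (34.8%), against 15.9% of the 11416 windows of all genes tested. The NRF1 motif was in 10.6% of member windows, against 3.23% of all, and the YY1 motif in 10.6%, against 2.84%. The E-box CACGTG was in 7.58% of member windows, against 9.62% of all, the CRE motif TGACGTCA in 3.03%, against 2.92%, and the GC box in 51.5%, against 58.9%. Of the 18 windows of members that fell under Dactolisib 8 held the ETS motif (44.4%), against 15 of 48 windows of the other members (31.2%), and the 2 shares were not tested against each other. A match describes the letters of a window and is not evidence of binding.

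Under Dactolisib most members had a lower signal than under DMSO. Within array sets 19 of 75 members fell at adjusted p < 0.05 and 0 rose, against 4.66% lower and 2.24% higher among all genes tested. The median log2 difference was -0.23, a signal 14.7% below DMSO, against 0.00 over all genes tested. Below 0 lay 62 members, against 50.5% of all genes. At unadjusted p < 0.05, 41 members were lower (background 15.1%) and 2 higher (background 9.17%). Without the block the median difference was -0.34, 67 members lay below 0 (background 48.1%), and limma called 0 members and 0.0% of all genes, and the lowest adjusted p of a member was 0.775. At unadjusted p < 0.05 without the block, 23 members were lower (background 3.72%) and 0 higher (background 2.73%). The methods' t-test gave 15 lower at unadjusted p < 0.05, with no background given here, and 0 after Benjamini-Hochberg adjustment. The block leaves few residual degrees of freedom, and the calls rest on both drug arrays. None remained within array sets without Dactolisib 1, Dactolisib 2 or DMSO 3.

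The 2 Dactolisib arrays lay in different sets, so each could be read against its own DMSO arrays. Dactolisib 1 was below the mean of DMSO 2 and DMSO 4 for 63 members, with a median of -0.22 and a range of -0.91 to 0.45. Dactolisib 2 was below DMSO 3 for 62 members, with a median of -0.22 and a range of -0.96 to 0.68. The medians of all genes tested were -0.02 and 0.00 on these arrays. In all 59 members were lower on both arrays (background 35.4%) and 9 were higher on both (background 31.6%). The 2 sets of differences, which share no array, correlated across the 75 members with Pearson's r = 0.72 and Spearman's rho = 0.76, against 0.60 and 0.53 across all 14237 genes; genes are not independent replicates. Read without any set, both Dactolisib arrays lay below all 4 DMSO arrays for 39 members (background 10.7%) and above all 4 for 0 (background 11.1%). Without DMSO 5 the count was 44 members below the other 3 (background 16.8%).

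**Figure D1:**
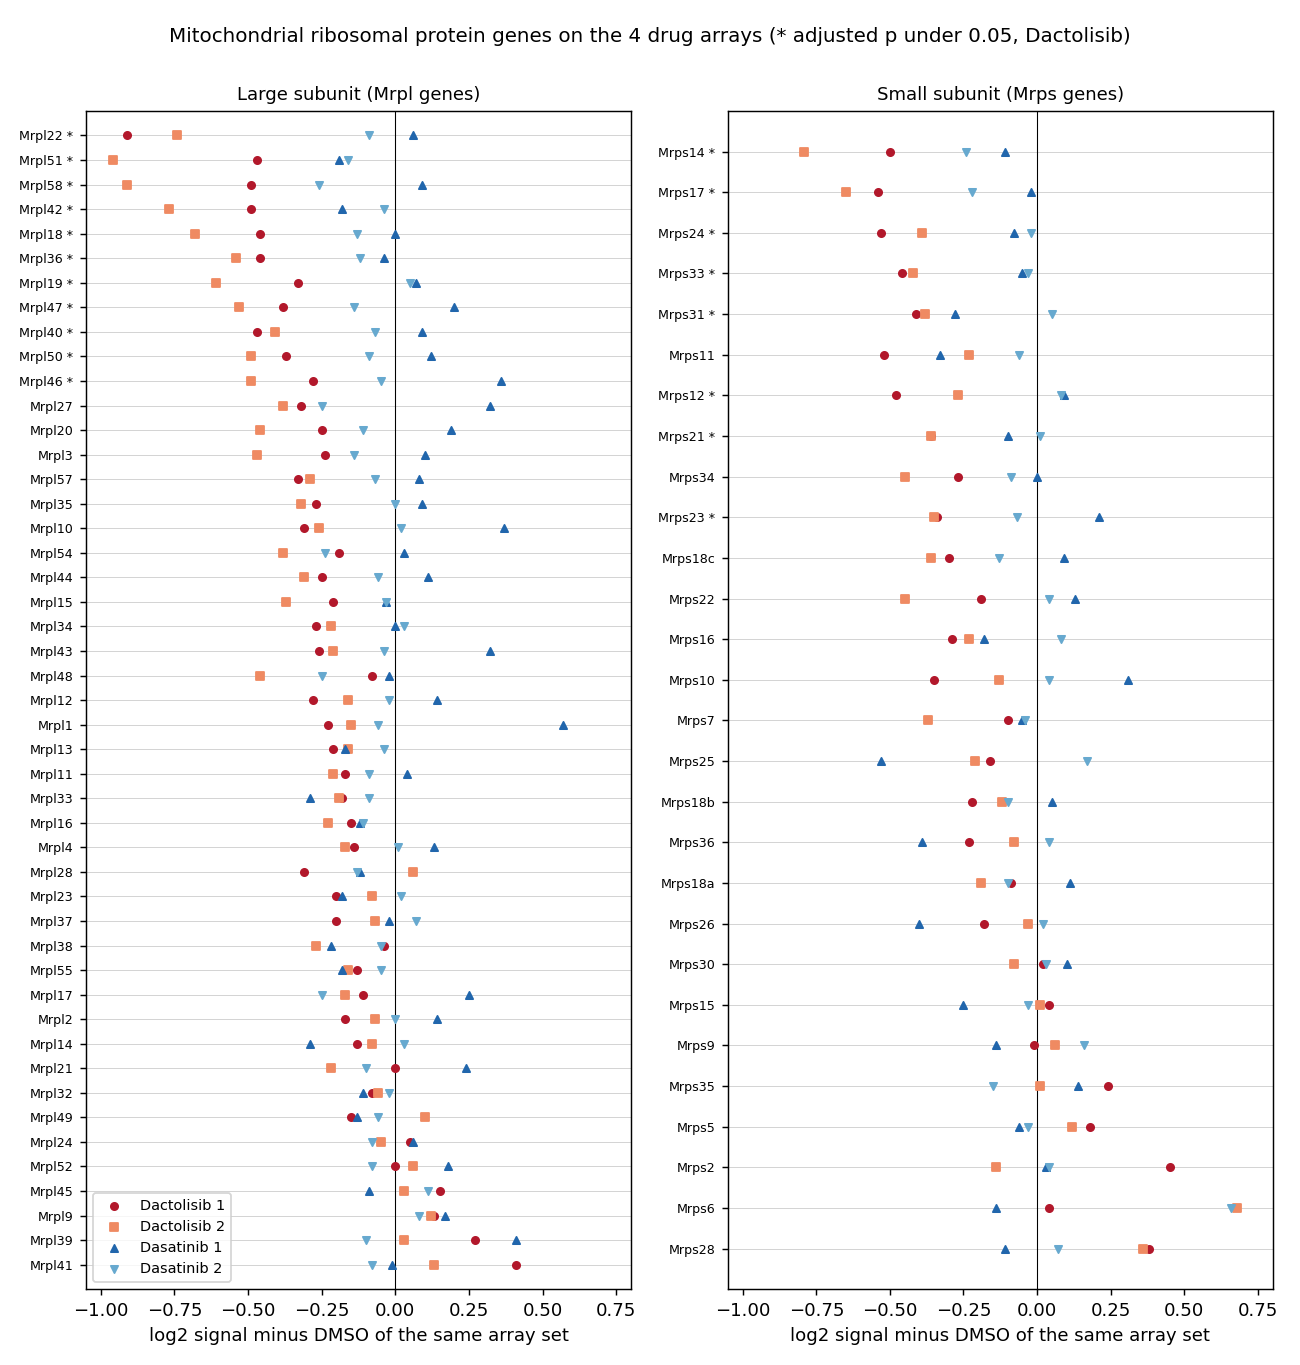
Log2 signal of each tested member minus the DMSO arrays of the same array set (x axis), one row per gene, for the 47 large subunit genes (left) and 28 small subunit genes (right). Points are single drug arrays, and an asterisk marks the 19 members with adjusted p < 0.05 for Dactolisib within array sets. In those rows both Dactolisib arrays lie below 0, which follows in part from the call on the same arrays.

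In the large subunit Mrpl22 lines the exit tunnel and gave the largest fall of all members within array sets. Members are named by position in the ribosome as examples chosen after their values were seen, so no count or pattern of a region is given. Its log2 signal was 5.57 and 5.58 on the Dactolisib arrays, against 6.48, 6.32, 6.46 and 7.22 on the DMSO arrays. Both Dactolisib arrays were below every DMSO array, and within array sets it fell by 0.84 ± 0.08 (SE; limma adjusted p = 0.00941), or by 44.1% on the linear scale. Mrpl47, a neighbor of the tunnel opening, fell by 0.45 ± 0.09 (adjusted p = 0.0302). Mrpl23 and Mrpl24, which also surround the opening, differed by -0.15 ± 0.08 and 0.01 ± 0.08 and were not called (adjusted p = 0.321 and 0.967). Mrpl24 read 8.49 and 8.60 under Dactolisib, against 8.37, 8.66, 8.50 and 8.80 under DMSO, with the groups overlapping.

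The central protuberance is the large subunit's contact with the head of the small one. Mrpl18, Mrpl40, Mrpl46 and Mrpl58 are examples placed there that fell, and not the full list of its proteins. Mrpl18, the homolog of a bacterial 5S rRNA binding protein, read 7.23 and 6.81 under Dactolisib, against 7.72, 7.48, 7.65 and 7.57 under DMSO, and fell by 0.55 ± 0.09 (adjusted p = 0.0183). Mrpl40 read 6.93 and 6.92 under Dactolisib, against 7.40, 7.33, 7.38 and 7.30 under DMSO, a narrow spread in both groups, and fell by 0.44 ± 0.08 (adjusted p = 0.0220). Mrpl58, a peptidyl-tRNA hydrolase that frees chains from stalled ribosomes, read 5.56 and 5.12 under Dactolisib, against 6.02, 6.03, 6.07 and 7.09 under DMSO. It fell by 0.67 ± 0.11 within array sets (adjusted p = 0.0191), and all 3 of these genes had Dactolisib arrays below every DMSO array. Mrpl46 fell by 0.37 ± 0.09 (adjusted p = 0.0469). Mrpl38 and Mrpl48, also placed there, were not called and differed by -0.14 ± 0.09 and -0.24 ± 0.13 (adjusted p = 0.377 and 0.322).

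Of the other large subunit members Mrpl42, found only in mitochondria, read 5.95 and 5.51 under Dactolisib, against 6.38, 6.28, 6.50 and 7.02 under DMSO, and fell by 0.61 ± 0.10 (adjusted p = 0.0179). Mrpl51 read 7.28 and 6.49 under Dactolisib, against 7.76, 7.45, 7.73 and 8.67 under DMSO, and fell by 0.68 ± 0.12 (adjusted p = 0.0216). Both genes had separate groups, and among the 19 members that fell Mrpl51 had the largest gap between its 2 arrays, -0.47 and -0.96 in their own sets. Mrpl36, a small zinc-binding protein, read 7.57 and 7.39 under Dactolisib, against 8.12, 7.93, 7.93 and 7.89 under DMSO, and fell by 0.49 ± 0.09 (adjusted p = 0.0246). Mrpl19 and Mrpl50 fell by 0.45 and 0.42 (adjusted p = 0.0351 and 0.0302). Mrpl10, Mrpl11 and Mrpl12, which form the stalk that binds elongation factors, differed by -0.29, -0.19 and -0.23 and none was called (adjusted p = 0.0746, 0.226 and 0.143). Mrpl12, which in human cells also binds the mitochondrial RNA polymerase, read 6.58 and 6.56 under Dactolisib, against 6.81, 6.72, 6.91 and 7.46 under DMSO, with no overlap.

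In the small subunit Mrps17, Mrps14, Mrps33, Mrps24, Mrps31, Mrps12, Mrps21 and Mrps23 fell. Mrps17, a homolog of a bacterial protein that binds the small rRNA, read 6.72 and 6.65 under Dactolisib, against 7.24, 7.29, 7.28 and 7.65 under DMSO, and fell by 0.58 ± 0.08 (adjusted p = 0.0129), or by 33.1%. Mrps14, a protein of the head, read 7.13 and 6.80 under Dactolisib, against 7.73, 7.59, 7.52 and 8.42 under DMSO, and fell by 0.62 ± 0.10 (adjusted p = 0.0208). Mrps33, found only in mitochondria, read 7.54 and 7.50 under Dactolisib, against 8.00, 7.93, 8.00 and 8.19 under DMSO, and fell by 0.45 ± 0.08 (adjusted p = 0.0214). The groups were separate for all 3. Mrps24, the homolog of a bacterial protein at the messenger RNA entry, read 7.09 and 6.88 under Dactolisib, against 7.63, 7.26, 7.60 and 7.85 under DMSO, and fell by 0.47 ± 0.08 (adjusted p = 0.0218). Mrps12, at the decoding center, fell by 0.39 (adjusted p = 0.0416), Mrps31 by 0.40, Mrps21 by 0.36 and Mrps23 by 0.34 (adjusted p = 0.0482). Mrps23 was the called member whose Dactolisib and DMSO arrays overlapped. The other 18 were separate, which follows in part from their being called on these same arrays. Mrps11, which shares its start region with Mrpl46, differed by -0.39 ± 0.11 and was not called (adjusted p = 0.0734), and the difference between the 2 genes was not tested.

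**Figure D2:**
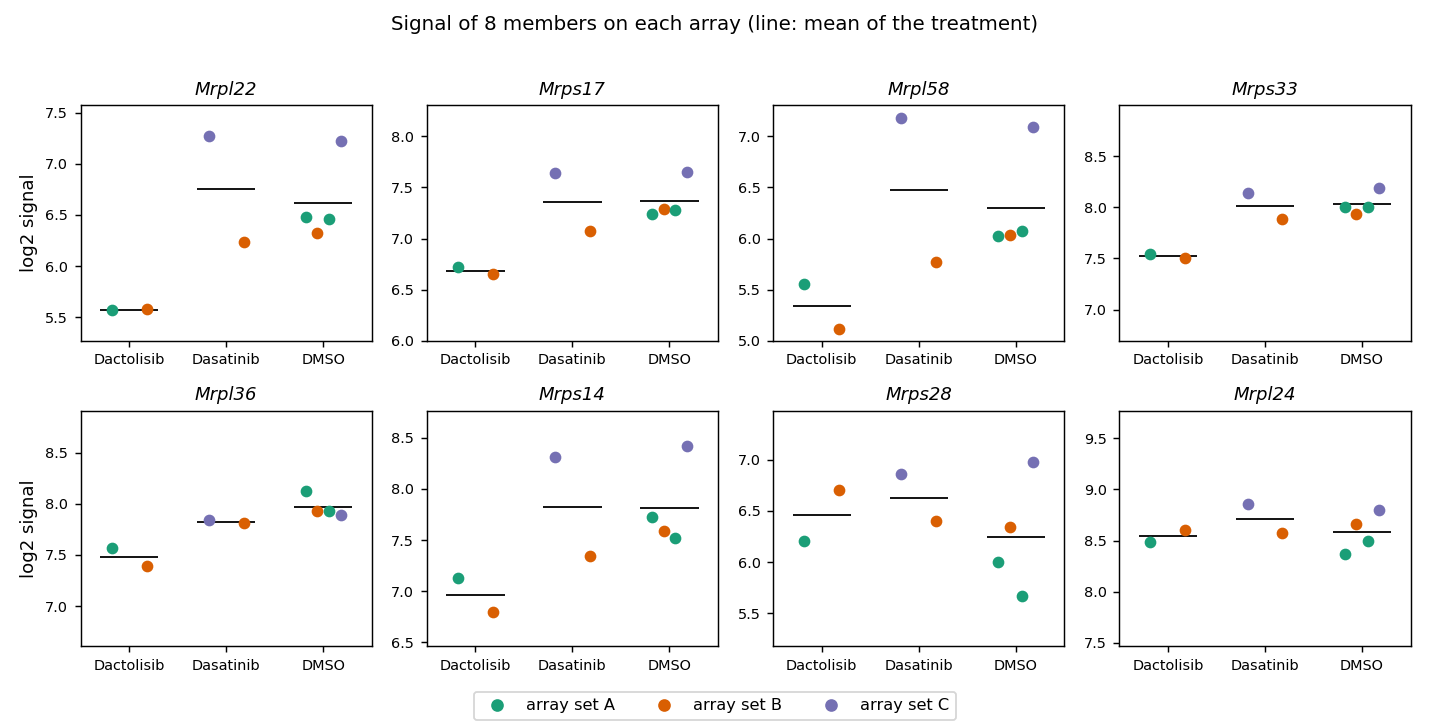
Log2 signal (y axis, a span of equal size in each panel) of 8 members on each array, by treatment, with a line at each treatment's mean and color for the array set. In the first 6 genes both Dactolisib points lie below all 4 DMSO points, and in Mrps28 and Mrpl24 they overlap.

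The 4 members with the highest differences under Dactolisib within array sets were Mrps28, Mrps6, Mrpl41 and Mrps2, and none was called. Mrps28 differed by 0.37 ± 0.11 (adjusted p = 0.0959), with 0.38 and 0.36 on the 2 arrays in their own sets. Its signal was 6.21 and 6.70 under Dactolisib, against 6.00, 6.34, 5.67 and 6.98 under DMSO, so that the groups overlapped without regard to set. Mrps6 differed by 0.32 ± 0.14 (adjusted p = 0.227), with 0.04 and 0.68 on the 2 arrays. Mrpl41 differed by 0.29 ± 0.11 (adjusted p = 0.173) and Mrps2 by 0.19 ± 0.14 (adjusted p = 0.456), with 0.45 and -0.14 on the 2 arrays. For Mrps6 and Mrps2 the direction turned with the fit: without the block they differed by -0.51 and -0.35, while Mrps28 and Mrpl41 differed by 0.21 and 0.42. The genes placed apart by their structure differed as follows within array sets: Mrps18a and Mrps30, which despite their symbols sit in the large subunit, -0.13 and -0.02, Mrps18b and Mrps18c -0.18 and -0.33, and Mrps36, also known as a subunit of the oxoglutarate dehydrogenase complex, -0.17. None of these 5 was called.

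The large and small subunits had medians of the same size under Dactolisib within array sets. The median log2 difference was -0.23 for the 47 Mrpl and -0.23 for the 28 Mrps genes, and 11 and 8 members fell. Both Dactolisib arrays were below all 4 DMSO arrays for 25 Mrpl and 14 Mrps genes. Without the block the medians were -0.28 and -0.38. With subunits assigned by structure the medians within array sets were -0.20 for the large and -0.26 for the small subunit. By origin the median was -0.21 for the 45 members with a homolog among bacterial ribosomal proteins, 10 of which fell. It was -0.28 for the 27 without such a homolog, 9 of which fell. Mrps18a, Mrps18b and Mrps36 were set aside in this grouping. Members are genes and not replicates, so these medians and counts are descriptions with no test.

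**Figure D3:**
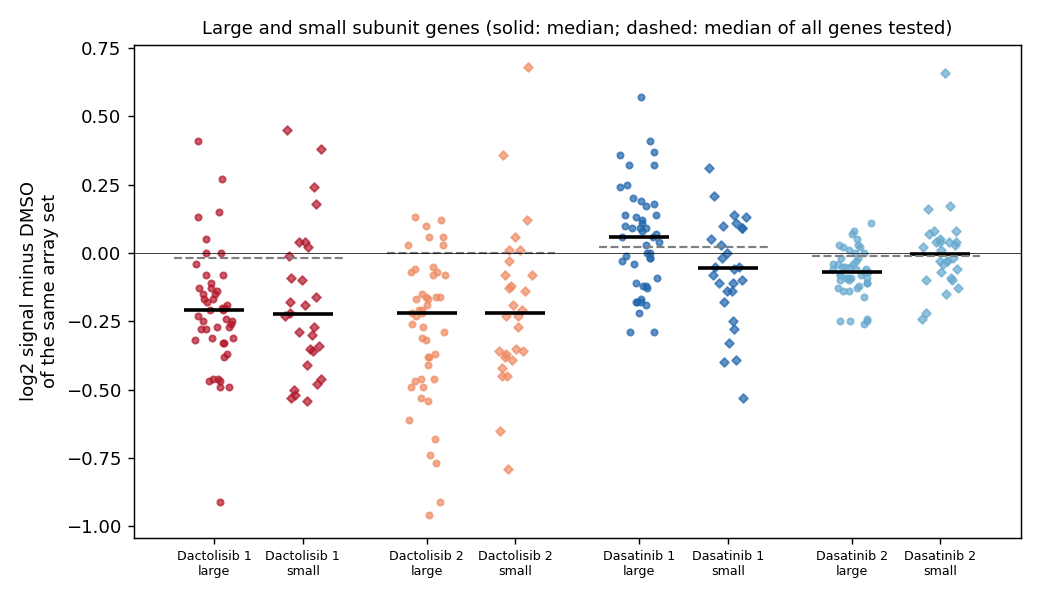
Log2 signal minus DMSO of the same array set (y axis) for the large and small subunit genes on each drug array, 1 point per gene, with a solid line at the median and a dashed line at the median of all genes tested. The Dactolisib medians lie between -0.21 and -0.23, and the Dasatinib medians between -0.07 and 0.06.

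Different probe sets of a member did not always agree. Of 156 member probe sets 136 were tested, and 34 members had more than 1. In 19 of these 34 all tested probe sets lay on one side of 0 under Dactolisib within array sets. The second tested probe sets of Mrps24 and Mrpl50 fell as well, by 0.37 and 0.44 (adjusted p = 0.0453 and 0.0444). The dimmer probe sets of Mrps14 and Mrpl51 differed by only -0.10 and -0.05 (adjusted p = 0.621 and 0.756). For Mrpl19 the other 2 tested probe sets differed by 0.05 and -0.68, neither called. The other tested probe sets of Mrps23 differed by -0.33 and 0.03 and that of Mrps21 by -0.21. None of them was called (limma adjusted p = 0.0733, 0.881 and 0.302). Mrpl13 and Mrpl15, not called by their brightest probe set, each had a dimmer one that fell, by 0.45 and 0.37 (adjusted p = 0.0484 and 0.0401). Counting any probe set, 21 members fell. Of the 19 members that fell, 12 had a single tested probe set.

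Under Dasatinib 0 members were called in either fit, as were 0.0% of all genes tested. At unadjusted p < 0.05 limma gave 0 members in both fits, against 2.1% of all genes lower and 1.86% higher within array sets and 0.162% lower and 0.14% higher without the block, and the methods' t-test gave 1 higher. Below 0 lay 42 members within array sets (background 47.5%) and 36 without the block (background 49.6%). The median difference was -0.02 within array sets and 0.01 without the block. Against its own set Dasatinib 1 had a median of 0.00 and a range of -0.53 to 0.57, and Dasatinib 2 a median of -0.05 and a range of -0.26 to 0.66. Lower on both arrays were 23 members (background 22.8%) and higher on both 10 (background 21.9%). The differences on the 2 arrays correlated across the members with r = -0.27 and rho = -0.27, against -0.11 and -0.12 over all genes. Both Dasatinib arrays lay below all 4 DMSO arrays for 2 members (background 2.47%) and above all 4 for 1 (background 1.66%). Within array sets the large subunit had a median of 0.00 and the small subunit of -0.04.

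The 4 members with the lowest p under Dasatinib within array sets were Mrpl51, Mrpl10, Mrpl33 and Mrpl1, each with an adjusted p of 0.850. Mrpl51 differed by -0.18 (95% interval -0.41 to 0.05) and read 8.48 and 7.29 under Dasatinib, against 7.76, 7.45, 7.73 and 8.67 under DMSO. Mrpl10 differed by 0.19 (-0.09 to 0.47), Mrpl33 by -0.19 (-0.46 to 0.09) and Mrpl1, a protein of the stalk at the transfer RNA exit, by 0.25 (-0.12 to 0.62). The Mrpl1 difference came from Dasatinib 1, at 0.57 in its set, while Dasatinib 2 was at -0.06. For the 19 members that fell under Dactolisib the Dasatinib differences ranged from -0.18 to 0.16. For Mrpl22 the Dasatinib interval was -0.25 to 0.22, around a difference of -0.02.

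The drugs were also compared with each other at the same dose and time in a fit of all 8 arrays, 1 pair of compounds. They shared only set B (Dactolisib 2 and Dasatinib 2). The blocked contrast therefore rests in part on the DMSO arrays, which the comparisons with DMSO also use. Within array sets the median member differed by -0.20, Dactolisib minus Dasatinib, and 0 members were called, as were 0.0% of all genes. At unadjusted p < 0.05, 32 members were lower (background 9.78%) and 1 higher (background 5.07%), and 60 lay below 0 (background 51.9%). Mrpl22 differed by -0.77 ± 0.11 (adjusted p = 0.0788; 95% interval -1.02 to -0.51), Mrpl19 by -0.56 ± 0.12 (0.115 adjusted), Mrpl18 by -0.51 ± 0.11 (0.126 adjusted) and Mrpl42 by -0.57 ± 0.13 (0.127 adjusted). Mrpl22 read 5.57 and 5.58 under Dactolisib, against 7.27 and 6.24 under Dasatinib. The 7.27 came from Dasatinib 1 of set C, where DMSO 5 read 7.22. Without the block the median was -0.35, with 65 members below 0 (background 45.2%), 13 lower (background 2.4%) and 0 higher (background 1.44%) at unadjusted p < 0.05, and 0 called. That median was -0.16 with Dasatinib 1 left out and -0.47 with Dasatinib 2 left out. The medians were -0.20 for both subunits within array sets, and -0.28 for the large and -0.47 for the small subunit without the block. A difference between the drugs that misses the threshold does not show that they act alike.

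Member signals were high in set C as well as low under Dactolisib. Relative to the mean of the 4 DMSO arrays the members' median was -0.28 and -0.38 on Dactolisib 1 and 2, 0.18 and -0.16 on Dasatinib 1 and 2, and -0.06, -0.10, -0.08 and 0.22 on DMSO 2 to 5. DMSO 5 was the highest DMSO array for 46 of 75 members, 25 Mrpl and 21 Mrps, and Dasatinib 1 was above Dasatinib 2 for 58. The shares of all genes tested in these orders were not counted, so these counts are not read as particular to the members. The medians of all genes tested were -0.06 on DMSO 5 and -0.04 on Dasatinib 1. The arrays of set C, where members were high, are those with the highest epithelial sums. Between sets A and B the member medians on the DMSO arrays were close. The epithelial sums there were 11074 and 10900 on DMSO 2 and 4, against 2160 on DMSO 3. The median range over the DMSO arrays was 0.54 with DMSO 5 and 0.19 over DMSO 2, 3 and 4. In RNA of a mixed sample fewer cells of a type and less RNA per cell cannot be told apart.

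**Figure D4:**
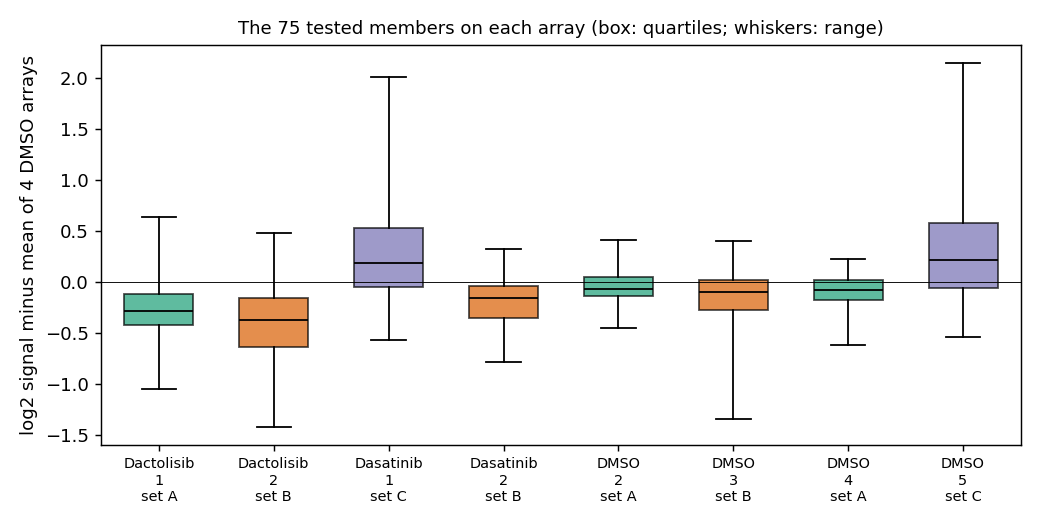
Log2 signal of the 75 tested members on each array minus their mean over the 4 DMSO arrays (y axis), with boxes for quartiles, whiskers for the range and color for the array set. The 2 set C arrays have medians of 0.18 and 0.22, and the 2 Dactolisib arrays have the lowest medians, -0.28 and -0.38.

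Markers of the cell types that the samples could hold were read in the same fit. Of all genes tested 4.66% were lower and 2.24% higher under Dactolisib within array sets. A list's count near those shares says nothing particular about it. Within array sets under Dactolisib, of 17 macrophage and monocyte markers 3 fell (Cx3cr1, C1qa and C1qc) and the list's median was -0.17, with a summed signal of 10246 and 11868 under Dactolisib, against 9390 to 12323 under DMSO. Of 21 granulocyte markers 2 fell (Mmp9 and Cxcr2), with a median of -0.06, and of 19 epithelial markers 2 fell (Cldn4 and Cdh1), with a median of -0.08. Without the block, where no marker was called, the epithelial median was -1.32 with 18 of 19 below 0, and the 6 seminal vesicle and prostate secretion markers all lay below 0, between -2.81 and -0.21, while within array sets 2 of them lay below 0. Of 15 fibroblast markers 2 fell and 1 rose, and 0 were called of 9 endothelial, 7 lymphocyte and 6 seminal vesicle and prostate secretion markers. The sums of the granulocyte markers were 81307 and 72792 under Dactolisib, against 66893 to 84614 under DMSO. RNA quality was read from the 3' minus 5' probe sets of Actb, whose log2 difference was 0.08 and 0.15 under Dactolisib, against 0.03 to 0.08 under DMSO, and of Gapdh, at -0.04 and -0.08 under Dactolisib, against -0.10 to -0.04 under DMSO. The part of any of these in the members' differences was not tested.

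Other genes of mitochondrial translation, from lists chosen with earlier results known, had 1 to 3 members lower per list within array sets, where 4.66% of all genes tested were lower; a list's share near that background, as for the assembly factors, says nothing particular about it. Of 4 mitoribosome proteins with other symbols 2 fell within array sets under Dactolisib (median -0.37): Chchd1, of the small subunit, by 0.50 ± 0.08 and Gadd45gip1, of the large one, by 0.48 ± 0.08. Of 13 translation factors 2 fell (median -0.17): Qrsl1, which helps make glutaminyl-tRNA, by 0.49 and Mtfmt, which formylates the initiator, by 0.38. Of 23 assembly factors 1 fell (median -0.07), the RNA helicase Ddx28, by 0.48, and Dhx30, another helicase, differed by -0.37 and was not called (adjusted p = 0.0664). Of 18 genes of mitochondrial DNA and RNA 3 fell (median -0.09): Slirp, which stabilizes mitochondrial messenger RNA, by 0.75 ± 0.09, Ssbp1, which coats single-stranded DNA, by 0.58 ± 0.11, and Tfam, which packages and transcribes mitochondrial DNA, by 0.52 ± 0.08. Of 15 mitochondrial tRNA synthetases 1 fell (median 0.00), Hars2, by 0.54, while Yars2 differed by -0.31 (adjusted p = 0.189). Each of the genes said to have fallen had a limma adjusted p < 0.05 within array sets, and none was called without the block.

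The comparison lists outside mitochondrial translation were complex I of the respiratory chain and the cytosolic ribosome. Among all genes tested 4.66% were lower under Dactolisib within array sets and 50.5% lay below 0. Of 33 complex I subunits 13 fell (median -0.31), and of 43 cytosolic ribosomal proteins 1 fell (median 0.03, 11 below 0). Without the block none of these was called, and the medians were -0.43 for complex I and -0.19 for the cytosolic ribosomal proteins, 37 of which lay below 0, so for the cytosolic ribosome the direction of the median turned with the fit. Of 8 regulators of mitochondrial biogenesis 0 were called (median -0.02): Nrf1 differed by -0.01 ± 0.08, Gabpa, the ETS subunit of GABP, by -0.16 ± 0.08 and Yy1 by 0.08 ± 0.08. The 8 differences ranged from -0.16 to 0.12 within array sets and from -0.92 to 0.15 without the block. These differences between lists were not tested. The mitochondrial gene ND5 was the single mitochondrially encoded gene tested, at 0.41 ± 0.13 (adjusted p = 0.107).

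**Figure D5:**
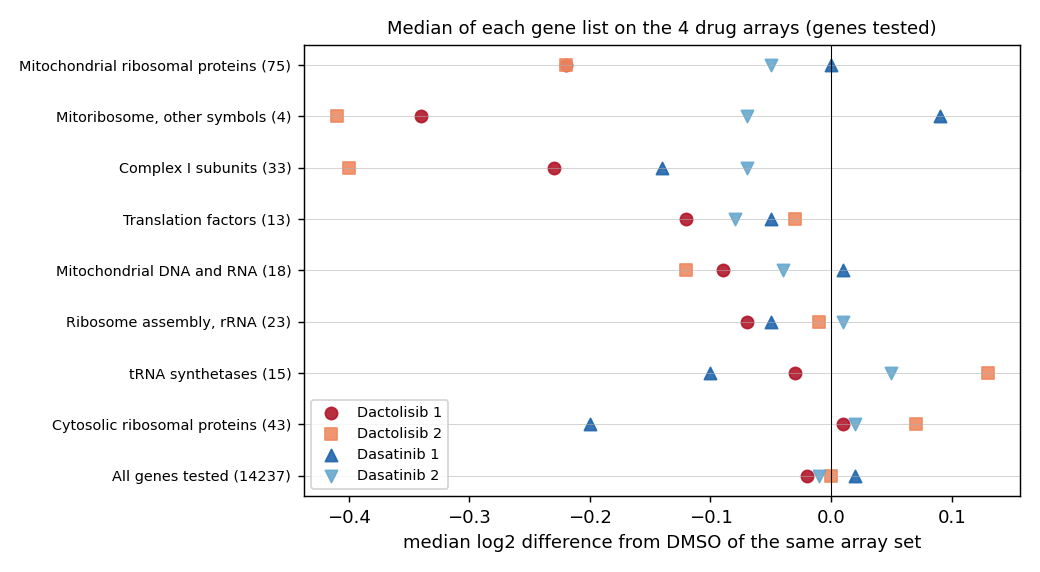
Median log2 difference from DMSO of the same array set (x axis) of each gene list on the 4 drug arrays, with the number of genes tested in brackets. The 2 Dactolisib points lie at -0.22 for the ribosomal proteins, at -0.23 and -0.40 for complex I, and at 0.01 and 0.07 for the cytosolic ribosomal proteins.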

How the data were processed

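RNA of Gr-MDSCs was hybridized to 8 arrays. The values, log2 signals of 45101 probe sets, are the authors' and were used as deposited. For their summary the methods give oligo and the submitters' processing notes MAS5; likewise the labels name Trizol and the paper RNeasy for the extraction. Treatment was taken from the titles, because in the Dasatinib samples another field names Dactolisib. Probe sets were joined to genes through the array's annotation: 34945 had 1 gene, 932 several and 9160 none, and 64 were controls. After a filter on mean signal (upper 67%, no controls) 30023 probe sets were fitted with limma 3.58.1 in R 4.3.3 (lmFit, eBayes, Benjamini-Hochberg over these probe sets, threshold 0.05), for each drug against DMSO on 6 arrays and for the drugs on 8, with no covariate or with the array set. Array sets came from clustering by Pearson's r (average linkage); the lowest r within a set was 0.9868 and the highest between sets 0.9799. The fits were tested on simulated data.

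Members and lists were chosen with earlier results of these data known. Named were the 10 members with the lowest p for Dactolisib within array sets, 4 each with the lowest p in the other comparisons and with the highest differences, 6 with a special place, and any called member. Mrpl11, Mrpl23, Mrpl24, Mrpl38, Mrpl48, Mrps11 and Ssbp1, and the grouping of members by position in the ribosome, were added after their values were seen. The regulators Nrf1 and Yy1 were also named outside these rules. The number of arrays limits the precision. Alternatives are given in the closing section.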

Additional observations from a re-analysis of the deposited data

Results flagged for a closer look

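In 3 of the 25 named members whose DMSO arrays were looked at, DMSO 5 stood far from the other 3 DMSO arrays. Mrps17 read 7.65 on DMSO 5, against 7.24, 7.29 and 7.28 on DMSO 2, 3 and 4. Mrpl58 read 7.09 on DMSO 5, against 6.02, 6.03 and 6.07, and Mrps2 read 7.24, against 5.27, 5.22 and 5.09. In each case the gap of DMSO 5 to the nearest other array was large for its whole range by Dixon's test, a limit that chance passes in about 1 of 20 groups. DMSO 5 is an array of set C, and Dasatinib 1 of the same set read 7.64, 7.18 and 7.27 for these genes.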

How the results depend on the processing

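The direction of the Dactolisib median held under each alternative run, and the number of calls did not. Without the block 0 members were lower, against 19 within array sets, the median was -0.34 and the large minus small subunit median 0.10. Within array sets the number lower was 34 with 32 added before log2, 33 with the upper 33% of probe sets and 34 with a trended and robust prior, each with 1 higher; it was 14 after quantile normalization, 14 with no filter, 13 with all 8 arrays in one fit and 24 with a gene's probe sets averaged. Leaving out an array gave 0 to 19 lower and 0 to 1 higher, with 0 lower without Dactolisib 1, Dactolisib 2 or DMSO 3. The median was -0.19 after quantile normalization, -0.17 with 32 added and -0.20 with a gene's probe sets averaged.

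For Dactolisib against Dasatinib within array sets the median was -0.18 (quantile), -0.16 (32 added), -0.24 (upper 33%) and -0.16 (probe set mean), and 1 member was lower with 32 added, the upper 33% and the trended prior. Leaving out an array gave medians of -0.25 to -0.17. The large minus small subunit median was 0.08 by structure and -0.16 to 0.08 over the arrays left out. Without the set block leaving out an array gave medians of -0.47 to -0.16 and subunit differences of 0.00 to 0.24, and the subunit difference was 0.19, against 0.00 within array sets.

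For Dasatinib against DMSO leaving out an array gave medians of -0.16 to 0.18 and subunit differences of -0.11 to 0.04 without the block, and -0.05 to 0.00 and -0.06 to 0.11 within array sets. The Dasatinib median was 0.01 without the block. Between the fits with and without the block, set side by side for single members after seeing the data, 5 of 75 differences under Dactolisib, 24 under Dasatinib and 9 between the drugs had opposite signs. Of the named members these included, without the block, Mrps6 at -0.51, Mrps2 at -0.35 and Mrpl24 at -0.04 under Dactolisib, and Mrpl10 at -0.04 and Mrpl22 at 0.13 under Dasatinib. Within array sets some differences changed sign under the other alternatives run. Named members that did so under Dactolisib included Mrps30 (0.02 after quantile normalization, -0.08 to 0.02 over the arrays left out), Mrps2 (-0.14 to 0.45) and Mrpl24 (-0.05 to 0.05). Of the members whose Dasatinib difference is given above, Mrpl1 (-0.06 to 0.57) and Mrpl22 (-0.09 to 0.06) did so. Other named members also turned under Dasatinib when an array was left out. Among them were Mrps6 (-0.14 and 0.66 on Dasatinib 1 and 2 in their own sets) and Mrpl46 (0.36 and -0.05). The cause of these changes was not tested.

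The replicate numbers could be used as a block only between the drugs, since a drug and DMSO share 1 number, and nothing says that a number pairs samples. With the replicate block the median was -0.35, 0 members were called, 16 were lower at unadjusted p < 0.05 and the lowest adjusted p was 0.733.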
